A study of Xenopus laevis with 2 samples.

Results

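The genes described here make, carry, sense and degrade retinoic acid, together with the wider aldehyde dehydrogenase family. They were chosen by gene symbol, with earlier results of these data known. The symbols mark aldehyde dehydrogenases, retinol or alcohol dehydrogenases, dhrs short-chain dehydrogenases, and retinoid carriers, storage or cleavage enzymes. They also mark cyp26 enzymes, retinoid receptors and retinoid responders. This choice gave 50 of the 8879 transcripts in the table, with 48 different symbols, because rdh10 and rxrb each had a row for both gene copies. Such copies are homeologs, the L and S versions left by the genome duplication of Xenopus laevis. No other symbol among the members had a row for both copies.

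Hearts were dissected from stage 44 to 45 tadpoles of the African clawed frog, and their polyadenylated RNA was sequenced. One group had been injected at fertilization with Control-MO, a control morpholino (an antisense oligomer that blocks the translation or splicing of its target), and its variation is given as control. The sibling group had been injected with Tcf21-MO, against the epicardial transcription factor gene tcf21, and is labelled Tcf21-depleted. Each group was 1 library made from 70 to 100 pooled hearts. The labels state neither how the Tcf21 morpholino acts nor whether a second morpholino was used, and injection at fertilization does not restrict it to the heart. The tcf21 transcript had 1266 reads in control hearts and 3738 in Tcf21-MO hearts, and since its mode of action is not stated, these counts are no check of the label.

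Retinoic acid is made from vitamin A in successive oxidations. Retinol is first oxidised to retinaldehyde by retinol dehydrogenases such as rdh10, a reversible step that reductases such as dhrs3 run backwards, and the aldh1a enzymes then oxidise retinaldehyde to retinoic acid. Retinoic acid binds RAR receptors, which act on DNA as pairs with RXR receptors, and cyp26 enzymes clear it. In mouse and chick hearts the epicardium, the outer cell layer, is a known site of aldh1a2 expression and retinoic acid synthesis.

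The control library held 17636925 reads and the Tcf21-MO library 17767221. Levels are given as counts per 1000000 reads of the TMM-scaled library (CPM) or, where genes are compared, per kilobase of transcript as well (RPKM). A count of 0 allows up to 3 counts, or 0.168 CPM in control hearts and 0.171 CPM in Tcf21-MO hearts. The labelled tissue was checked with cardiomyocyte markers: all 12 listed markers with a row had reads in both libraries, and they summed to 78462 CPM in control hearts and 58177 CPM in Tcf21-MO hearts. Every ratio below is Tcf21-MO over control with its 95% counting interval, which covers counting error only and treats each read as independent. Reads from amplified libraries are not independent molecules, so the interval may be too narrow even for counting error. Without replicates no test was possible, and each ratio describes this single pair of libraries. In pooled tissue, fewer cells of a type and less RNA per cell cannot be told apart.

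Within the retinaldehyde dehydrogenases the genes differed in direction: aldh1a1 was lower in Tcf21-MO hearts, while aldh1a2, at a ratio of 1.99, stood close to the 2-fold rule on the higher side. The retinoid responder rarres1 was higher, and the RAR receptors and rxrb stood at nearly equal levels in both libraries. Of the 50 transcripts, 45 had at least 20 reads over both libraries and were compared. Transcripts were called higher or lower when they differed at least 2-fold and the interval excluded a ratio of 1. By that rule 3 members were higher (rarres1, adh1b and rbp3), 2 were lower (aldh1a1 and rdh5) and 40 were neither. Over all 8132 transcripts compared, 2.67% were called higher and 2.4% lower, or 5.07% either way. Among members the shares were 6.67% and 4.44%, and with so few calls a single gene moves these shares strongly. The median log2 ratio was 0.11 over members, with a 95% order-statistic interval of -0.05 to 0.31, and 0.00 over all transcripts. Such order-statistic intervals treat genes as independent draws and do not cover variation between hearts or libraries. Within 1.5-fold of no difference lay 75.6% of members and 84.3% of all transcripts. The interval excluded 1 for 26 of the 45 members, or 57.8%, beside 58.2% of all transcripts.

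**Figure D1:**
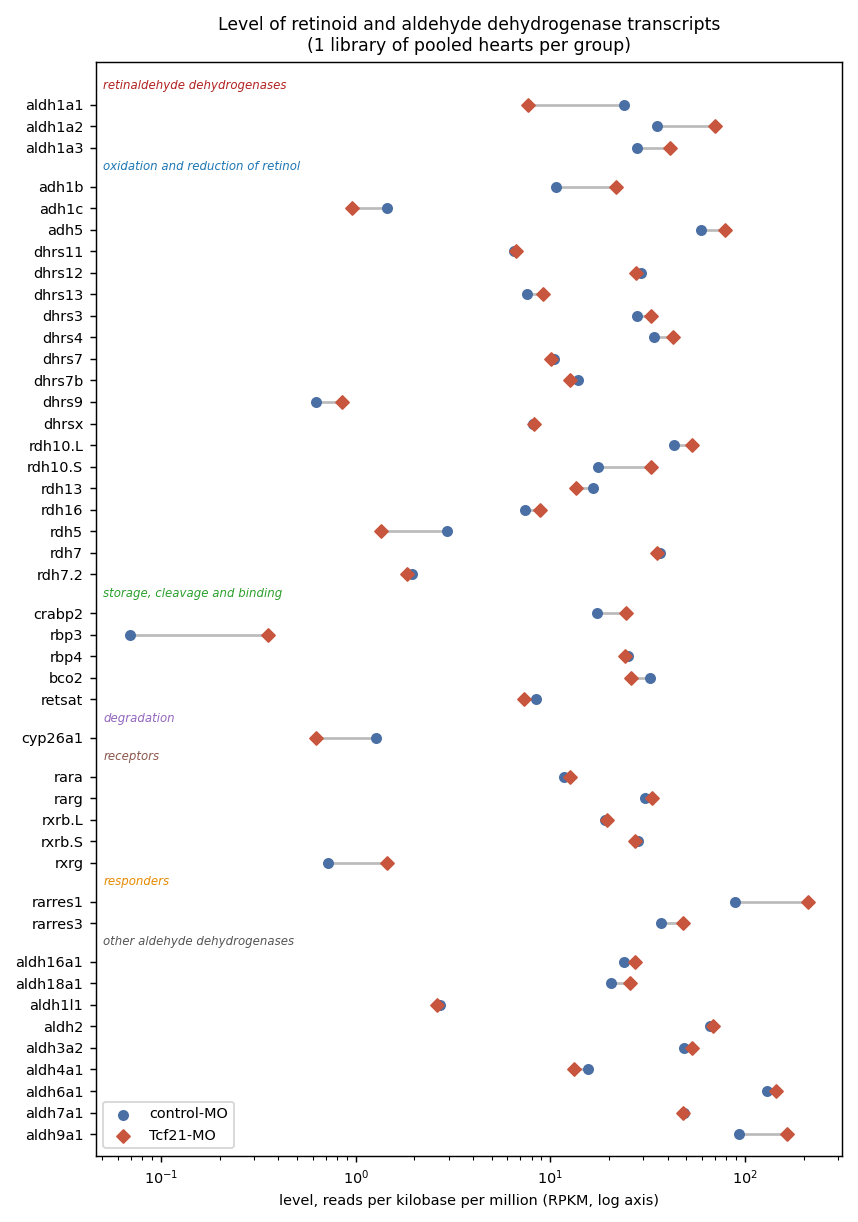
Level of members with at least 20 reads over both libraries, in RPKM on a log axis, with members grouped by role. Circles are the control-MO library and diamonds the Tcf21-MO library, and a line joins them. The longest lines belong to rbp3, aldh1a1, rarres1 and rdh5, while the points of rara, rarg and both rxrb copies nearly coincide.

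All 3 aldh1a genes, which make retinoic acid from retinaldehyde, were well detected. Each had a row for its L copy only, by the name table. The levels, sums and shares given for them therefore hold no separate count of an S copy. The aldh1a2 transcript, the main retinoic acid synthesis gene of early vertebrate embryos, had 1696 reads (94.9 CPM) in control hearts and 3310 reads (189 CPM) in Tcf21-MO hearts. Its ratio was 1.99 (1.87 to 2.11), just under the 2-fold rule and above the ratios of 97.2% of all transcripts. The aldh1a1 transcript, which codes for a broadly acting cytosolic retinaldehyde dehydrogenase, had 699 reads (39.1 CPM) in control hearts and 220 reads (12.5 CPM) in Tcf21-MO hearts. It was 3.11-fold lower (2.68 to 3.65), and only 0.836% of all transcripts had a lower ratio. The aldh1a3 transcript, the other retinaldehyde dehydrogenase of the family, had 1064 reads (59.6 CPM) and 1540 reads (87.8 CPM), with a ratio of 1.47 (1.36 to 1.60). Thus 2 of these genes had ratios above 1 and 1 below it.

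The makeup of the aldh1a family therefore differed between the libraries more than its sum. Per kilobase, the control library held aldh1a2 at 35.2, aldh1a3 at 27.8 and aldh1a1 at 23.9 RPKM. In the Tcf21-MO library aldh1a2 stood at 69.9, aldh1a3 at 41.0 and aldh1a1 at 7.66 RPKM. The order of the genes was the same in both, and in the control they lay within 1.47-fold of each other. The summed level was 86.9 RPKM in control hearts and 119 RPKM in Tcf21-MO hearts, a ratio of 1.36. The share of aldh1a1 in that sum was 27.5% in control hearts and 6.45% in Tcf21-MO hearts, and that of aldh1a2 was 40.5% and 59.0%. The share of aldh1a3 was 32.0% and 34.6%. The ratio of aldh1a2 to aldh1a1 reads was 2.43 in control hearts and 15.0 in Tcf21-MO hearts. This is a 6.20-fold difference (5.26 to 7.33) that does not depend on how the libraries are scaled to each other. The ratio of aldh1a2 to aldh1a3 reads was 1.59 and 2.15, a 1.35-fold difference (1.22 to 1.49).

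**Figure D2:**
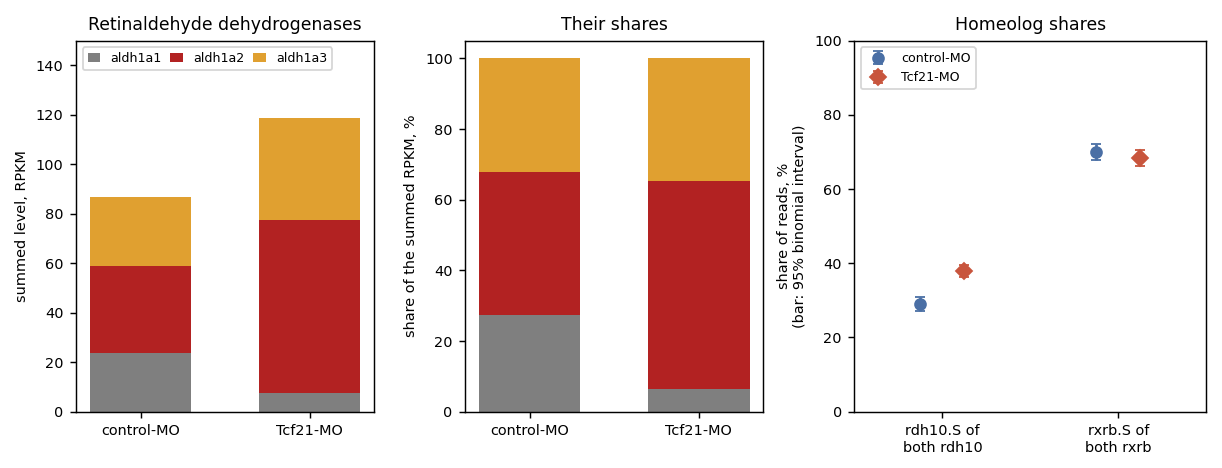
Left, summed RPKM of the retinaldehyde dehydrogenases in each library, stacked by gene; middle, the share of each gene in that sum; right, the share of reads from the S copy of rdh10 and of rxrb, with 95% binomial intervals. The aldh1a1 share was 27.5% in control hearts and 6.45% in Tcf21-MO hearts, and the rdh10.S share 29.0% and 38.0%.

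The step before, between retinol and retinaldehyde, is run by enzymes of the rdh, dhrs and adh families. These symbols gave 21 transcripts, and 19 of them were compared. They were grouped by symbol, and not all of them are known to act on retinol. Of these, 1 was higher, 1 lower and 17 neither, beside 2.67% higher and 2.4% lower over all transcripts. The group median log2 ratio was 0.05. The retinol dehydrogenase gene rdh10, which in Xenopus and mouse embryos supplies retinaldehyde for retinoic acid synthesis, had both copies in the table. Its L copy had 1721 reads in control hearts and 2101 in Tcf21-MO hearts, with a ratio of 1.24 (1.17 to 1.33). Its S copy had 704 and 1287 reads, with a ratio of 1.86 (1.7 to 2.04). The intervals of these ratios do not overlap. The S copy made up 29.0% of rdh10 reads in the control (27.2% to 30.9%, exact binomial interval) and 38.0% in Tcf21-MO hearts (36.3% to 39.6%). Summed over both copies, rdh10 had 2425 and 3388 reads, a ratio of 1.42 (1.35 to 1.5). How reads that match both copies were assigned is not given, so the separate values are uncertain.

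The reductase gene dhrs3, which returns retinaldehyde to retinol and is itself induced by retinoic acid in Xenopus embryos, had 1070 and 1243 reads. Its ratio was 1.18 (1.09 to 1.29), so it lay close to the L copy of rdh10. The ratio of rdh10.L to dhrs3 reads was 1.61 in control hearts and 1.69 in Tcf21-MO hearts, a 1.05-fold difference (0.946 to 1.17) whose interval included no difference. The ratio of rdh10.S to dhrs3 reads was 0.658 and 1.04, a 1.57-fold difference (1.39 to 1.78). The retinaldehyde reductase gene dhrs4 had 710 and 870 reads and a ratio of 1.25 (1.13 to 1.38).

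Among the other retinol dehydrogenases, rdh5, which in mammals oxidises 11-cis-retinol in the eye, had 86 reads (4.81 CPM) in control hearts and 39 reads (2.22 CPM) in Tcf21-MO hearts. It was 2.15-fold lower (1.47 to 3.25). The most abundant of the rest was rdh7, related to the microsomal retinol dehydrogenases of mammals, with 1527 and 1445 reads and a ratio of 0.964 (0.896 to 1.04). Its chromosomal neighbours rdh16 and rdh7.2 had far fewer reads: 159 and 187 for rdh16, and 41 and 38 for rdh7.2. Both of their intervals included 1. In assembly version 10.1 no protein-coding gene lies between rdh7 and rdh16, and 1 lies between rdh16 and rdh7.2. Reads of these genes may have been shared if their sequences are alike, which was not tested. The mitochondrial enzyme gene rdh13 had 329 and 263 reads, 1.23-fold fewer after scaling (1.04 to 1.45). The other dhrs transcripts ran from a ratio of 0.908 for dhrs7b to 1.35 for dhrs9, and all 9 dhrs transcripts lay within 1.5-fold. Their intervals included 1 for dhrs7, dhrs7b, dhrs9, dhrs11, dhrs12 and dhrsx, and dhrs9 had only 18 and 24 reads.

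The alcohol dehydrogenases split by abundance. The class I gene adh1b, whose class oxidises ethanol and retinol in mammals, had 289 reads (16.2 CPM) in control hearts and 575 reads (32.8 CPM) in Tcf21-MO hearts. It was 2.02-fold higher (1.76 to 2.34), just past the 2-fold rule. That call was lost when the libraries were scaled to the total count, where its ratio was 1.97. The formaldehyde-detoxifying gene adh5, the most abundant of them per kilobase at 59.2 and 78.5 RPKM, had a ratio of 1.33 (1.24 to 1.42). The remaining alcohol dehydrogenases were scarce, with 34 and 22 reads for adh1c, 8 and 5 for adh1a, and 10 and 2 for adh7. The interval of adh1c included 1, and adh1a and adh7 were below the floor of 20 reads. Close copies of this family make the separate adh1 values uncertain.

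**Figure D3:**
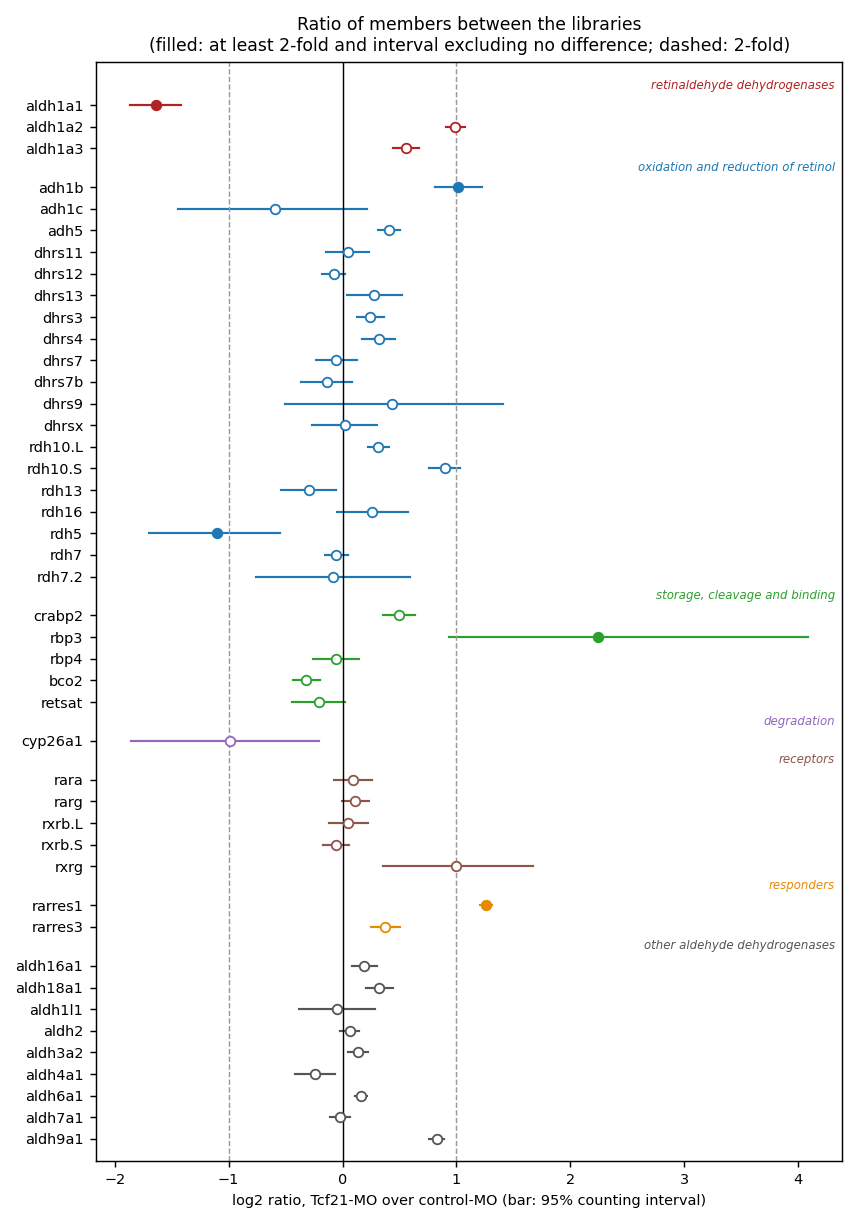
Log2 ratio of Tcf21-MO over control-MO for members with at least 20 reads, with its 95% counting interval as a bar, grouped by role. Filled points are past the 2-fold rule: aldh1a1 and rdh5 on the lower side, and adh1b, rbp3 and rarres1 on the higher side. The wide bars of rbp3, rxrg and cyp26a1 go with their low counts.

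Genes that bind, store or cleave retinoids comprised 7 transcripts, of which 6 were compared, with 1 higher, 0 lower and 5 neither. Over all transcripts 2.67% were higher and 2.4% lower. The gene crabp2, whose product carries retinoic acid to its receptor in mammals, had 700 and 969 reads and a ratio of 1.41 (1.28 to 1.56). The plasma retinol carrier gene rbp4, best known as a liver product, had 412 and 389 reads and a ratio of 0.962 (0.835 to 1.11). Its plasma partner gene ttr had 15 and 11 reads, and the liver marker list summed to 98.9 CPM in control hearts and 121 CPM in Tcf21-MO hearts. Of its 14 markers with a row, 12 had at least 20 reads, among them ambp with 521 and 542 reads and ahsg with 310 and 187, while alb had 2 and 2 reads and apob 0 in both. Ratios were above 1 for 7 of those 12 and below 1 for 5, with 2 called higher and 0 lower.

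The gene bco2, for a mitochondrial enzyme that cleaves carotenoids, had 1269 and 1000 reads with a control level 1.25-fold that of Tcf21-MO (1.15 to 1.36). The retinol saturase gene retsat had 344 and 292 reads, with an interval that included 1. The gene lrat, whose enzyme esterifies retinol for storage, had a row for its L copy only, with 8 and 6 reads. The photoreceptor-matrix retinoid carrier gene rbp3 had 5 control reads (0.280 CPM) and 25 reads (1.43 CPM) in Tcf21-MO hearts. Its ratio of 4.72 (1.91 to 17.0) passed the rule, but rests on 30 reads, and at 0.0692 and 0.352 RPKM it was the lowest member compared.

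The cyp26 genes with a row had few reads. The gene cyp26a1, a retinoic acid hydroxylase that retinoic acid itself induces, had 41 reads (2.30 CPM) in control hearts and 20 reads (1.14 CPM) in Tcf21-MO hearts. It was 1.99-fold lower (1.15 to 3.63), just short of the 2-fold rule, and scaling to the total count put its log2 ratio at -1.03 and past that rule. Per kilobase this was 1.27 and 0.629 RPKM, far below aldh1a2. The ratio of aldh1a2 to cyp26a1 reads was 41.4 in control hearts and 166 in Tcf21-MO hearts, a 4.0-fold difference (2.28 to 7.23). The gene cyp26c1 had 2 and 1 reads.

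The receptor genes rara, rarg and rxrb stood at nearly equal levels in both libraries. Of 5 receptor transcripts 0 were called in either direction, and the group median log2 ratio was 0.09. The most abundant row per kilobase was that of rarg, with 1195 reads (30.6 RPKM) in control hearts and 1269 reads (33.1 RPKM) in Tcf21-MO hearts. Its ratio was 1.08 (0.999 to 1.17). The other RAR gene, rara, had 598 reads (11.8 RPKM) and 626 reads (12.6 RPKM), with a ratio of 1.07 (0.952 to 1.2). The ratio of rarg to rara reads was 2.00 in control hearts and 2.03 in Tcf21-MO hearts.

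The RXR partner gene rxrb had an L copy with 551 and 560 reads, at a ratio of 1.04 (0.919 to 1.17), and an S copy with 1289 and 1214 reads, at a ratio of 0.959 (0.886 to 1.04). The S copy took 70.1% of rxrb reads in the control (67.9% to 72.1%) and 68.4% in Tcf21-MO hearts (66.2% to 70.6%), intervals that overlap. For these abundant receptor transcripts the counting intervals lay within about 1.2-fold of no difference. With 1 library per group they set no bound on a difference between the conditions. The exception in this group was rxrg, an RXR gene with restricted expression, with 31 reads (1.74 CPM) and 61 reads (3.48 CPM). Its ratio was 1.99 (1.28 to 3.20), from a level of 0.720 RPKM in the control. The symbols rarb, rxra, stra6 and cyp26b1 had no row under the symbols used and were not analysed here.

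Both retinoid responders had ratios above 1. The gene rarres1, found in human skin as a transcript induced by a synthetic retinoid, had 3865 reads (216 CPM) in control hearts and 9080 reads (518 CPM) in Tcf21-MO hearts. It was 2.39-fold higher (2.30 to 2.49), the narrowest interval among the called members, and above the ratios of 98.4% of all transcripts. At 88.5 and 212 RPKM it ranked 892nd and 440th of the 8879 transcripts. The gene rarres3, which the name table calls plaat4 and whose human counterpart is a lipid-modifying enzyme, had 909 and 1158 reads and a ratio of 1.3 (1.19 to 1.42). The names record how the human genes were found, and whether either responds to retinoic acid in frog hearts was not measured here.

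**Figure D4:**
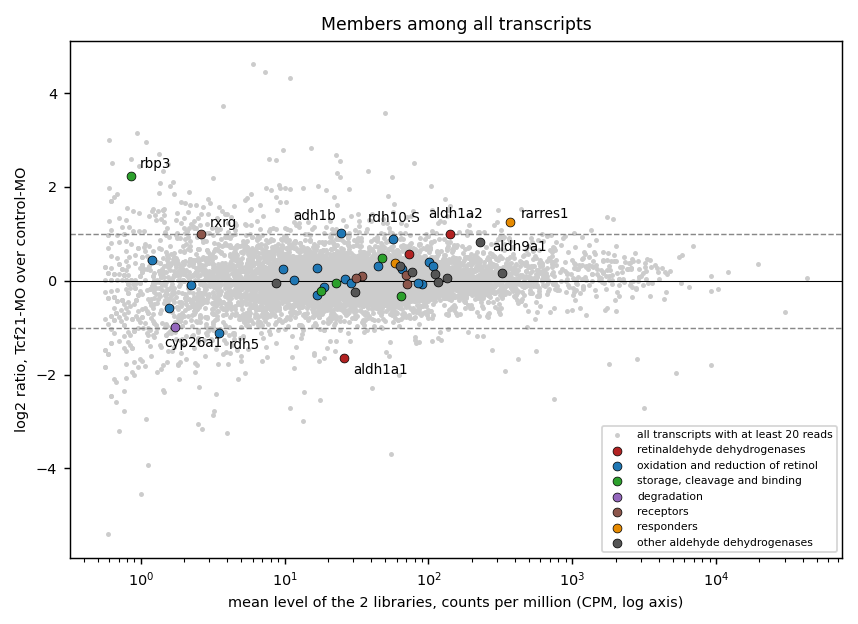
Log2 ratio of Tcf21-MO over control-MO against the mean CPM of the 2 libraries (log axis) for all 8132 transcripts compared, in grey, with the members in colour by role. Dashed lines mark 2-fold. The aldh1a1 point lies well below the grey band at its level, rarres1 above it, and most other members inside it.

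The other aldehyde dehydrogenases, among them enzymes of amino acid metabolism, had 10 transcripts, of which 9 were compared and 0 called. Their median log2 ratio was 0.14, with a range from -0.24 to 0.83. The upper end was aldh9a1, which oxidises an intermediate of carnitine synthesis, with 2937 reads (164 CPM) in control hearts and 5116 reads (292 CPM) in Tcf21-MO hearts. Its ratio of 1.77 (1.7 to 1.86) exceeded those of 95.7% of all transcripts and stood apart from the other 8, which ran from 0.847 to 1.25.

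The most abundant member of all per kilobase in the control was aldh6a1, of valine and pyrimidine breakdown, at 130 RPKM in control hearts and 145 RPKM in Tcf21-MO hearts. Its ratio was 1.12 (1.08 to 1.16). The acetaldehyde-oxidising gene aldh2 had 2367 and 2428 reads and a ratio of 1.04 (0.987 to 1.11). The lysine-breakdown gene aldh7a1 had 2111 and 2041 reads and a ratio of 0.985 (0.926 to 1.05). Of the pair around proline, aldh18a1, which acts in its synthesis, had a ratio of 1.25 (1.15 to 1.36), and aldh4a1, which acts in its breakdown, was 1.18-fold lower (1.05 to 1.33). The fatty aldehyde gene aldh3a2 and aldh16a1 had ratios of 1.1 (1.03 to 1.17) and 1.14 (1.06 to 1.23). The folate enzyme gene aldh1l1 had 157 and 149 reads, and aldh3b1 had 7 reads in control hearts and 0 in Tcf21-MO hearts, below the floor.

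Genes around the pathway were read from 4 further lists, to be set beside the 2.67% higher and 2.4% lower of all transcripts compared. Of 35 genes known in vertebrates as targets of retinoic acid or responsive to it, 26 had a row and 23 were compared, with 1 higher, 2 lower and 20 neither. Their median log2 ratio was -0.03, close to that of all transcripts. The list was not split by whether retinoic acid raises or lowers a gene, so this median does not measure a retinoic acid response. Among the lower ones was fgf8, a growth factor gene, with 146 and 52 reads (2.74-fold lower, 2.00 to 3.86). The higher one was fgf9, a growth factor gene expressed in mouse epicardium, with 31 and 92 reads and a ratio of 2.99 (1.99 to 4.70). The next highest with at least 50 reads was znf703, with 1127 and 1898 reads and a ratio of 1.71 (1.59 to 1.85). The Hox genes of the list with at least 20 reads had no call in either direction. The abundant retinoid-induced transglutaminase gene tgm2 had 8564 and 8825 reads and a ratio of 1.05 (1.02 to 1.08).

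Of 18 coregulators of nuclear receptors, 11 were compared and 0 called in either direction, with a median log2 ratio of -0.14. The corepressor gene ncor1 had 1627 and 1269 reads, 1.26-fold fewer (1.17 to 1.36). The corepressor gene nrip1 had 166 and 123 reads, 1.32-fold fewer (1.04 to 1.69). The row listed as ctbp2, ctbp2l in the name table, had a ratio of 1.16 (1.04 to 1.3). Of 14 receptors that pair with RXR or bind beside it, 10 were compared, with 1 higher, 0 lower and a median log2 ratio of -0.10. The higher one was the row listed as nr1h5, with 5 and 17 reads. The row listed as nr1h4, which the name table calls the S copy of nr1h5, had 148 and 142 reads. The thyroid hormone receptor gene thra had 157 and 84 reads (1.83-fold lower, 1.40 to 2.42) and the fatty acid receptor gene ppara 1564 and 1049 reads (1.46-fold lower, 1.35 to 1.58). The highest with at least 50 reads were vdr at 1.41 (0.804 to 2.54) and ppard at 1.25 (1.12 to 1.39).

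Of 23 other genes of vitamin A handling, 12 were compared, with 1 higher, 0 lower and a median log2 ratio of 0.40. The higher one was the cytochrome P450 gene cyp3a4, with 260 and 517 reads and a ratio of 2.02 (1.74 to 2.36). The retinoid isomerase gene rpe65 had 38 and 74 reads and a ratio of 1.97 (1.32 to 3.02). The lowest with at least 50 reads were sdr16c5, a retinol dehydrogenase gene, at 0.865 (0.767 to 0.976), and fabp3 at 0.983 (0.95 to 1.02).

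**Figure D5:**
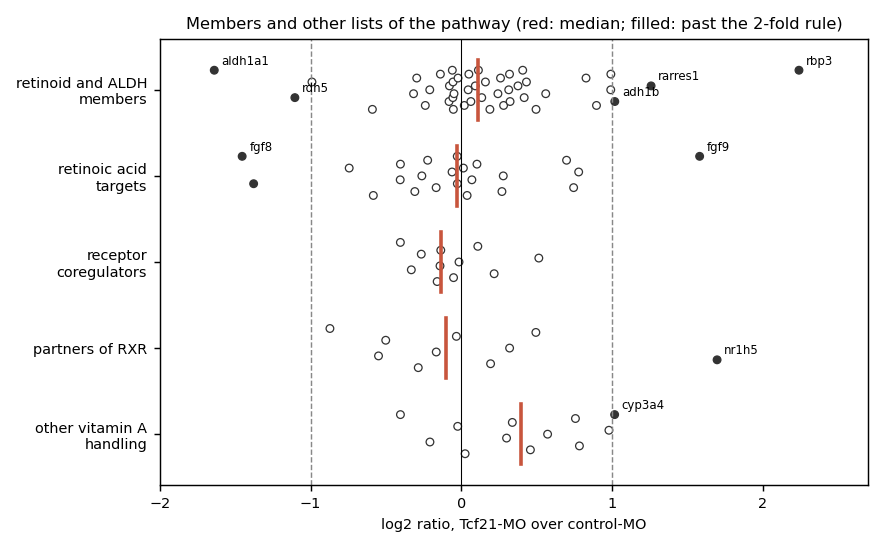
Log2 ratio of Tcf21-MO over control-MO for the members and for 4 further lists, 1 point per transcript with at least 20 reads and a red line at each median. Filled points are past the 2-fold rule. The median of the retinoic acid targets was -0.03 (order-statistic interval -0.31 to 0.10). That of the other vitamin A genes was 0.40 (-0.02 to 0.78).

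Markers of several cell types also differed between the libraries. Over all transcripts compared, 2.67% were called higher and 2.4% lower, and in short lists a single call weighs heavily. The epicardium list, without aldh1a2, had 5 of 11 markers higher, tcf21 among them, and 0 lower. Ratios were above 1 for 7 of its markers and below 1 for 4. The list summed to 1455 CPM in control hearts and 2604 CPM in Tcf21-MO hearts. Without krt8, its most abundant marker, the sums were 652 and 1069 CPM. Its sums shared their direction with aldh1a2 and rarres1, as did those of the fibroblast and the macrophage and leukocyte lists. The full sums of the neural, epidermis, liver and skeletal muscle lists also had that direction. The liver sums were 98.9 and 121 CPM. Skeletal muscle summed to 4244 and 4653 CPM, or 1076 and 791 CPM without ckm, its most abundant marker. The epicardium and fibroblast lists both count tcf21, the target of the morpholino, as higher, and sums without it were not computed. The fibroblast list had 3 of 8 higher and 0 lower, with 4527 and 8799 CPM. Ratios were above 1 for 5 of its markers and below 1 for 3, which were pdgfra, lum and dcn. The macrophage and leukocyte list had 3 of 8 higher and 0 lower, with 271 and 435 CPM. Its 8 ratios were all above 1. The erythroid list had 9 of 9 lower, with 30913 and 7801 CPM. The foregut, pancreas and lung list had 4 of 8 lower and 0 higher, with 24.2 and 10.8 CPM. Both lists shared their direction with aldh1a1 and rdh5. The cardiomyocyte sums, 78462 and 58177 CPM, also had that direction, with 10 ratios below 1 and 2 above. So did the sums of the endothelial list, 546 and 462 CPM, and the kidney list, 3.58 and 2.85 CPM. The epidermis list had 3 of 8 lower and 0 higher, with 1835 and 2394 CPM in all, and 801 and 518 CPM without its most abundant marker. The neural list had 3 of 11 higher and 4 lower, with 103 and 240 CPM in all, and 62.5 and 73.8 CPM without its most abundant marker. The endothelial and skeletal muscle lists each had 1 lower and 0 higher. The liver list had 2 of 12 higher and 0 lower, and the kidney list, with pax8 at 0 in both libraries, had 0 of 2 called in either direction, as had the cardiomyocyte list with 0 of 12. The part of these markers in the member ratios was not tested.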

How the data were processed

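Polyadenylated RNA of pooled hearts was measured in 1 control-MO and 1 Tcf21-MO library, grouped by the label for the injected morpholino. The authors deposited whole-read counts per RefSeq transcript, not normalized, with transcript lengths in bp, per the file headers. Bowtie2 2.0.0.6, SAMtools 0.1.18.0 and CASAVA 1.7 are listed, without roles, per the submitters' processing notes. The genome build, counting rule, strand use and handling of reads that match several transcripts are not stated in the labels or headers, and such reads make values of close gene copies uncertain. The fold changes in the deposited table were left aside.

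Counts were scaled with TMM (edgeR 4.0.16, R 4.3.3), with factors of 1.013 and 0.987. Ratios had 0.5 counts added, and their 95% intervals are exact binomial (Clopper-Pearson), conditional on the summed count. Ratios of ratios within a library have conditional exact intervals (SciPy 1.17.1). RPKM is CPM per kilobase of deposited length. Only transcripts reaching 20 reads, summed over the libraries, were compared. With 1 library per group there is no p-value. Alternatives covered scaling (total count, DESeq2 1.42.0 size factors, and without the 50 most abundant transcripts), the floor, the threshold, the added count and the summing of copies.

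Transcripts matching the symbol rule were named, and some genes that the rules select are not reported here, though they stay in the counts and medians. From the further lists, genes past the 2-fold rule and the 2 highest and 2 lowest with at least 50 reads were named; tgm2, ambp, ahsg, alb, apob, pax8 and ttr, the nr1h4 row and tcf21 were added after values were seen. For a listed gene with several rows, the row with most reads was used. Members and lists were chosen with earlier results of these data known. Names come from a RefSeq table of assembly version 10.1, where 48 of the 50 accessions were found, 1 of them under a different symbol. The procedure was tested on simulated counts that held counting error only, so that test does not cover variation between hearts or libraries.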

Additional observations from a re-analysis of the deposited data

How the results depend on the processing

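Over 9 alternative settings, 392 of 399 recomputed member ratios stayed inside their counting interval, and 0 called members changed sign. The 7 outside were rarres1, aldh1a2, aldh2, aldh6a1 and aldh9a1 without the 50 most abundant transcripts, and both rdh10 copies when summed. Without those transcripts the log2 ratio was 1.17 for rarres1 and 0.906 for aldh1a2. Part of this tally was fixed in advance. Floor and threshold settings leave a ratio as it was, and summing of copies changes only rdh10 and rxrb. Each scaling setting moved all members by about the same small factor, too little to turn the sign of a called one. Removal of the trend with transcript length was chosen after seeing the data. Under the scaling and length settings, calls changed for 3 members near 2-fold: adh1b was no longer called when scaled to the total count (ratio 1.97), without the 50 most abundant transcripts (1.91) or with the length trend removed (1.99); cyp26a1 was called lower under the same 3 settings (0.490, 0.474 and 0.498); and aldh1a2 was called higher with the length trend removed (2.00). At 1.5-fold, 7 of the 45 members compared were higher and 3 lower. Of all 8132 transcripts compared, 636 were higher and 542 lower. With no floor, 4 members were lower, since adh7 and aldh3b1 then entered, and 223 of all transcripts were lower. With a floor of 100 reads, rbp3 was the called member that dropped out, and 106 of all transcripts were lower. The number of transcripts compared also differs with the floor, so these counts are not shares. Ratios of aldh2, dhrs11, dhrsx and rxrb.L, all near 1, changed sign in at least 1 setting. So did the median of the binding and storage genes (-0.06 at a floor of 100 reads and with none). The median of the rdh, dhrs and adh group also changed sign (-0.04 without the 50 most abundant transcripts). That scaling shifted the median of all transcripts to -0.08. Low counts limit rbp3, rxrg, cyp26a1, rdh5 and adh1c. No paired analysis was possible because each group had 1 library.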
